A study of Gallus gallus with 2 samples.

Results

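Cadherins and protocadherins are the membrane proteins described here, in cells of the embryonic chick retina sorted for a reporter of OTX2, a homeodomain transcription factor needed for photoreceptor formation. The members are every gene whose symbol in the deposited gene table begins with CDH and a digit or with PCDH. They number 44 of the 23967 genes in the matrix. By structural family, 5 are type I classical cadherins, 12 are type II cadherins, 3 are atypical cadherins, 4 are delta-1 protocadherins, 5 are delta-2 protocadherins, 12 are clustered protocadherins, and 3 are other protocadherins.

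Cadherins bind cadherins of the same or a related kind on a neighbouring cell in a calcium-dependent manner, and the classical members connect to the actin cytoskeleton through catenins. Delta protocadherins are smaller groups of single-gene proteins that influence cell contact, motility and axon growth, and clustered protocadherins are made from tandem gene arrays and serve in recognition between neurites. In the vertebrate retina N-cadherin, the product of CDH2, holds the neuroepithelium together, while type II cadherins and delta protocadherins are known for expression in restricted sets of neurons.

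The study compared a CTRL library, titled wt retina in the labels, and an OTX2CRISPR library, titled ko retina, both made on the 10x Chromium platform, in which each transcript is tagged with a cell barcode and a unique molecular identifier (UMI). Retinas of female chick embryos were electroporated at embryonic day 5 (E5) and cultured as explants for 48 h. All received the OTX2ECR2::GFP reporter, an OTX2 enhancer driving green fluorescent protein, and a plasmid in which the broadly active CAG promoter drives Cas9. The OTX2CRISPR retinas also received guide g2 against OTX2, and the CTRL retinas, taken from contralateral eyes, the plasmid without a targeting guide. Retinas were pooled, dissociated and sorted for GFP, so that the libraries represent the reporter-marked cells and not the whole retina, edited and unedited cells together. With 1 library per condition there was no replicate. No test was made, each comparison describes these 2 libraries, and a condition cannot be told apart from its library. Intervals are exact 95% intervals that account for counting error and for nothing else. Those of levels are Poisson, those of shares of cells Clopper-Pearson, and those of ratios conditional binomial intervals.

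After filtering, the CTRL library held 5073 cells and 14773938 UMIs, and the OTX2CRISPR library 4928 cells and 13206843 UMIs, with 38 barcode sequences found in both. OTX2 stood at 1745 CPM (UMIs of the gene per 1000000 UMIs) in CTRL and at 761 in OTX2CRISPR, a log2 ratio of -1.20 (-1.23 to -1.16). The libraries count transcript 3' ends, so this level does not read the edit itself. Summed CPM in CTRL and OTX2CRISPR were 22.7 and 20.7 for markers of pigment epithelium, 15.5 and 13.9 for lens, 16.2 and 17.3 for endothelium, 0.203 and 0.227 for erythroid cells and 2.84 and 1.44 for microglia. At 0 in both were 2 of 5 erythroid, 2 of 5 lens, 1 of 4 endothelial and 1 of 3 microglial markers. The part of such cells in the results was not tested.

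Cells were clustered without the members, the class markers or OTX2 among the variable genes. Of 10 clusters 9 took the name of a class from its markers, some of which the study had itself taken from these cells. In CTRL and OTX2CRISPR the classes held 342 and 321 multipotent retinal progenitor (RPC)-like cells, 1279 and 507 restricted RPC-like cells, 815 and 37 dividing cone homotypical PC (chPC)-like cells, 697 and 38 cone PR2-like cells, 893 and 37 cone PR1-like cells, 87 and 519 HC1-like horizontal cells, 445 and 213 HC2-like horizontal cells, 150 and 549 ganglion (RGC)-like cells, and 32 and 1810 BRINP2/CRABP1-like cells. THRB, the thyroid hormone receptor gene that separates the cone types, was at 513 CPM in PR2-like and 32.3 CPM in PR1-like cells of CTRL. The last cluster, with 333 and 897 cells, stayed unnamed. NPY and PRSS56 were among its leading genes, as were DLX2 and PCDH10, a member. Its best class, marked by PTF1A and DLX genes, was the study's mixed amacrine, horizontal and ganglion class. Only 28.9% of the cells in the cluster scored highest for it. Classes with under 50 cells in a library are not described for that library.

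Counting was uneven over the members. A level below is the UMIs of a gene divided by all UMIs of the library or class, in CPM. It is not divided by transcript length, and annotated 3' ends differ between genes, so levels are compared for the same gene and not between genes. Of 25409 member UMIs in both libraries, 86.2% came from 9 genes with at least 500 UMIs each, and 12.9% from 13 genes with fewer than 500 but at least 50 UMIs. The other 22 members shared 235 UMIs. Delta-2 protocadherins gave 39.1% of member UMIs, type I cadherins 20.9%, type II cadherins 17.8%, clustered protocadherins 13.4% and delta-1 protocadherins 7.53%.

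**Figure D1:**
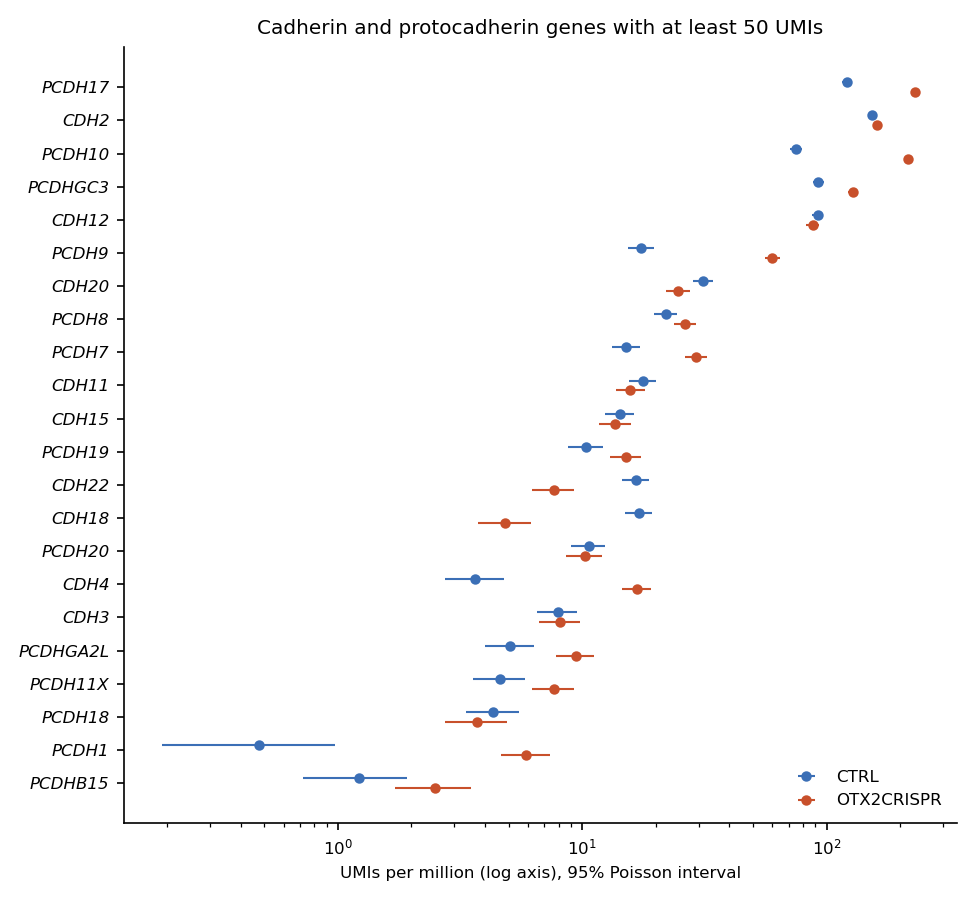
Level of each of the 22 members with at least 50 UMIs in the CTRL (blue) and OTX2CRISPR (orange) library, in CPM on a log axis, with 95% Poisson intervals; genes are ordered by total UMIs. Of members with at least 100 UMIs, PCDH10, PCDH9 and CDH4 were over 2-fold higher and CDH18 and CDH22 over 2-fold lower in OTX2CRISPR. CDH2 and CDH12 lay close together. PCDH1 (85 UMIs) and PCDHB15 (51 UMIs), under that minimum, were also over 2-fold higher.

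Between the whole libraries, among members with at least 100 UMIs, PCDH10, PCDH9 and CDH4 were at least 2-fold higher in OTX2CRISPR. CDH18 and CDH22 were at least 2-fold lower. PCDH10, also called OL-protocadherin, had 74.9 CPM (70.5 to 79.4) in CTRL and 216 CPM (208 to 224) in OTX2CRISPR. PCDH9, a delta-1 protocadherin, had 17.5 CPM (15.4 to 19.7) and 60.04 CPM (55.9 to 64.4), and CDH4, encoding R-cadherin, had 3.66 CPM (2.75 to 4.77) and 16.7 CPM (14.6 to 19.1). The type II cadherins went the other way, CDH18 from 17.0 CPM (15.0 to 19.2) in CTRL to 4.85 CPM (3.73 to 6.19) in OTX2CRISPR and CDH22 from 16.5 CPM (14.5 to 18.7) to 7.65 CPM (6.23 to 9.29). Expressed as log2 ratios of OTX2CRISPR over CTRL, these were 1.53 for PCDH10, 1.78 for PCDH9, 2.19 for CDH4, -1.81 for CDH18 and -1.11 for CDH22. The interval of CDH22, -1.46 to -0.77, reached under 2-fold. Of the 20 members with at least 100 UMIs, 3 were thus at least 2-fold higher, where 6.21% of all 10191 such genes were, a share that would come to 1.24 of 20. The 2 that were at least 2-fold lower stand beside 3.93% of all genes, or 0.787 of 20. The median log2 ratio was 0.16 over these members and 0.04 over all genes. Fewer cells of a class and less RNA per cell of that class cannot be told apart in such sums, and levels within classes are given below.

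Short of 2-fold, PCDH7 had 15.1 CPM in CTRL and 29.2 CPM in OTX2CRISPR and PCDH17 had 121 CPM and 231 CPM, log2 ratios of 0.95 (0.71 to 1.20) and 0.93 (0.85 to 1.02). PCDHGC3 had a log2 ratio of 0.48, PCDH8 of 0.26 and CDH20 of -0.34. CDH2, at 154 CPM and 161 CPM, and CDH12, at 91.9 CPM and 87.6 CPM, differed by less than counting error. Their log2 ratios, 0.07 (-0.02 to 0.15) and -0.07 (-0.18 to 0.05), included 0.

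The ratios were also formed with each class given the same weight in both libraries, a calculation added once results were known. This evens out class sizes, but not the mix of cells inside a class such as the unnamed cluster, described below. The log2 ratio of PCDH10 was then 1.54 and that of PCDH17 0.85, close to the values from summed UMIs. That of PCDH9 was 0.73, that of PCDH7 to 0.17 and that of PCDHGC3 to 0.08. These values use every class, including those with 32 to 38 cells in a library, such as the BRINP2/CRABP1-like cells of CTRL with 0 PCDH9 UMIs. Without the unnamed cluster, a further step of the same kind, the log2 ratio of PCDH10 was 0.98, just under 2-fold, and that of PCDH17 0.53.

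**Figure D2:**
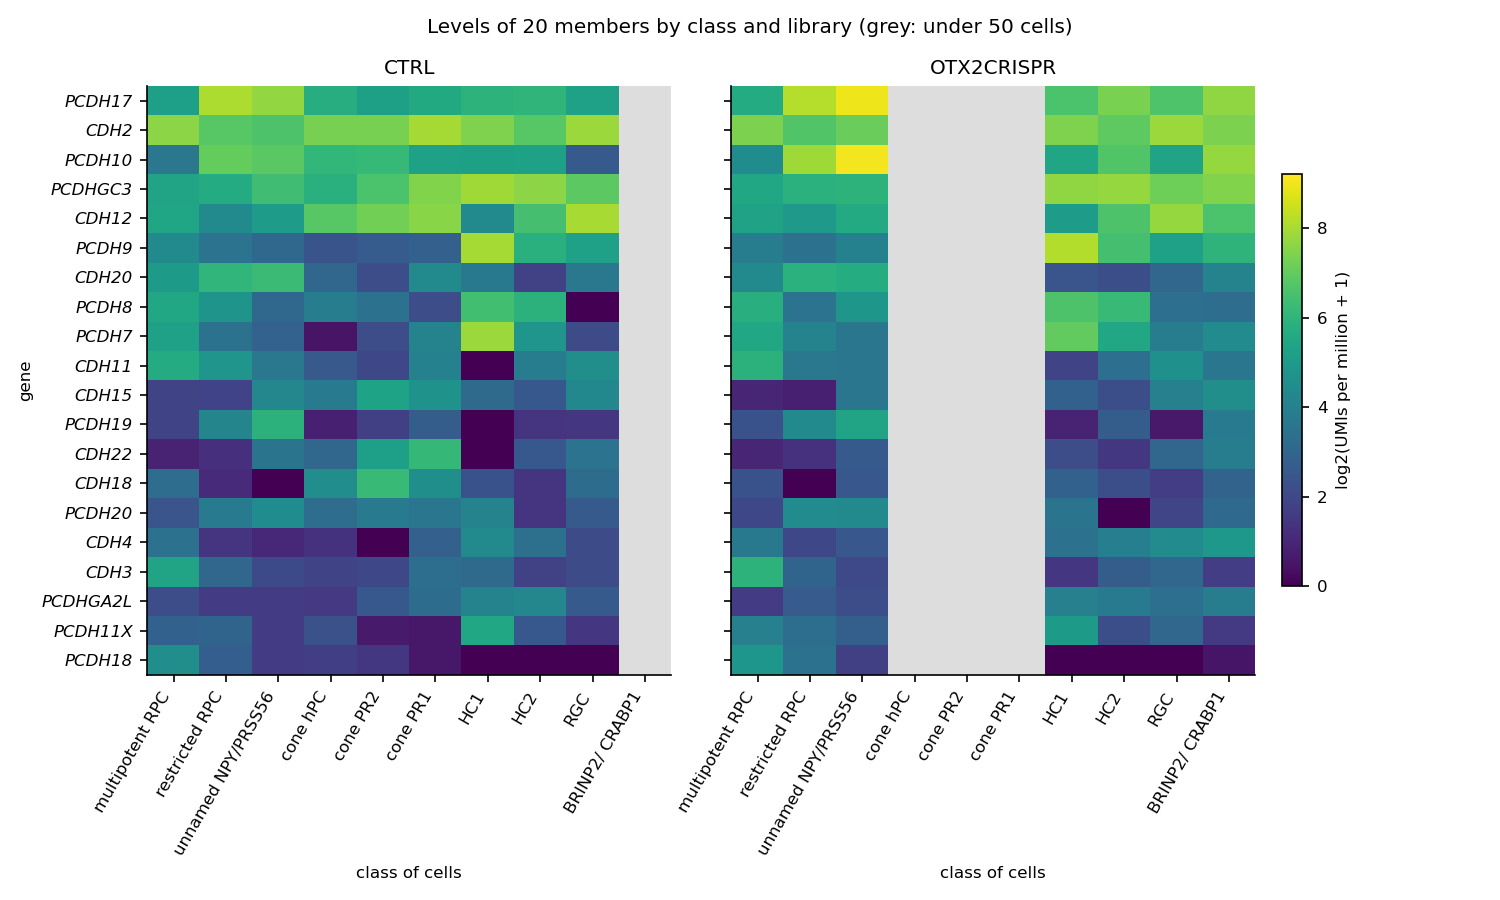
Level of the 20 members with at least 100 UMIs (rows) in each class (columns) of the CTRL (left) and OTX2CRISPR (right) library, as log2 of CPM plus 1; grey columns are classes with under 50 cells in that library. PCDH10 and PCDH17 were highest in restricted RPC-like and unnamed cells and PCDH9 and PCDH7 in HC1-like cells. In CTRL, CDH18 and CDH22 were highest in cone-like cells, whose columns are grey in OTX2CRISPR.

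In progenitors the levels of several members differed between restricted and multipotent RPC-like cells. Restricted RPC-like cells, which carry OLIG2 and other genes of progenitors committed to few fates, had high PCDH10 and PCDH17, both delta-2 protocadherins. In CTRL, PCDH17 was at 269 CPM (253 to 285) in restricted and 35.5 CPM (25.3 to 48.3) in multipotent RPC-like cells, a 7.57-fold difference. PCDH10 was at 129.9 CPM (119 to 141) and 11.5 CPM (6.14 to 19.7), an 11.3-fold difference. PCDH19, a further delta-2 protocadherin, was 6.54-fold higher in restricted cells (74 and 3 UMIs). PCDH20 was 2.97-fold higher (56 and 5 UMIs) and CDH20, a type II cadherin, 2.09-fold higher (276 and 35 UMIs). The log2 intervals of PCDH20 and CDH20, 0.26 to 3.25 and 0.55 to 1.62, reached under 2-fold. Phase moved with these folds, since 925 of 1271 restricted but 130 of 329 multipotent cells were called G2/M. Within G2/M cells PCDH10 was at 165.5 CPM (152 to 180.2) in restricted and 16.7 CPM (7.20 to 32.9) in multipotent cells, and PCDH17 at 332.5 CPM and 47.9 CPM. Within G1 cells the gaps were smaller and rested on few UMIs, with overlapping intervals for both genes. PCDH10 was at 22.0 CPM (10.6 to 40.5) and 8.79 CPM (1.81 to 25.7), and PCDH17 at 61.6 CPM (40.97 to 89.1) and 26.4 CPM (12.1 to 50.1). PCDH19 was at 21.5 CPM (69 UMIs) and 2.08 CPM (1 UMI) in G2/M cells. In G1 cells it had 1 UMI in each class, at 2.20 CPM and 2.93 CPM. Over all phases, the same direction held in the OTX2CRISPR library for PCDH10, PCDH17, PCDH19, PCDH20 and CDH20. There PCDH17 was at 289 CPM and 49.3 CPM and PCDH10 at 236 CPM and 21.1 CPM.

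Multipotent RPC-like cells, which carry NR2E1 and SOX9, had another set. CDH3, encoding P-cadherin, was at 40.8 CPM (29.9 to 54.4) in multipotent and 7.30 CPM in restricted cells of CTRL, 5.59-fold higher, and PCDH7 was 3.68-fold and CDH12 2.06-fold higher. Within G1 cells PCDH7 was at 52.8 CPM (31.3 to 83.4) in multipotent and 6.61 CPM (1.36 to 19.3) in restricted cells of CTRL. Within G2/M cells it was at 20.8 CPM (10.0 to 38.3) and 10.9 CPM (7.61 to 15.2), with overlapping intervals. In OTX2CRISPR, CDH3 was at 60.4 CPM (46.1 to 77.7) and 6.73 CPM. CDH2 was at 193 CPM (169 to 221) in multipotent and 110.1 CPM (100.4 to 121) in restricted cells, which is 1.76-fold, and CDH11 was at 49.7 CPM and 26.6 CPM. PCDH18 was highest in multipotent cells, at 22.2 CPM in CTRL and 27.2 CPM in OTX2CRISPR, against 5.65 CPM and 9.72 CPM in restricted cells, and had no UMI in HC1-like, HC2-like or RGC-like cells of either library. Of 13 members with at least 50 UMIs in the CTRL progenitors, 5 were at least 2-fold higher in restricted cells, where 8.37% of all genes were, and 3 at least 2-fold lower, where 8.62% were. Those shares would come to 1.09 and 1.12 of 13. CDH20 was under 2-fold with median scaling, with 20 principal components and without cell cycle regression, and CDH12 with equal cell weight, with members and markers kept and without high doublet scores. Among G1 cells alone just 2 members reached 50 UMIs and neither passed 2-fold.

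**Figure D3:**
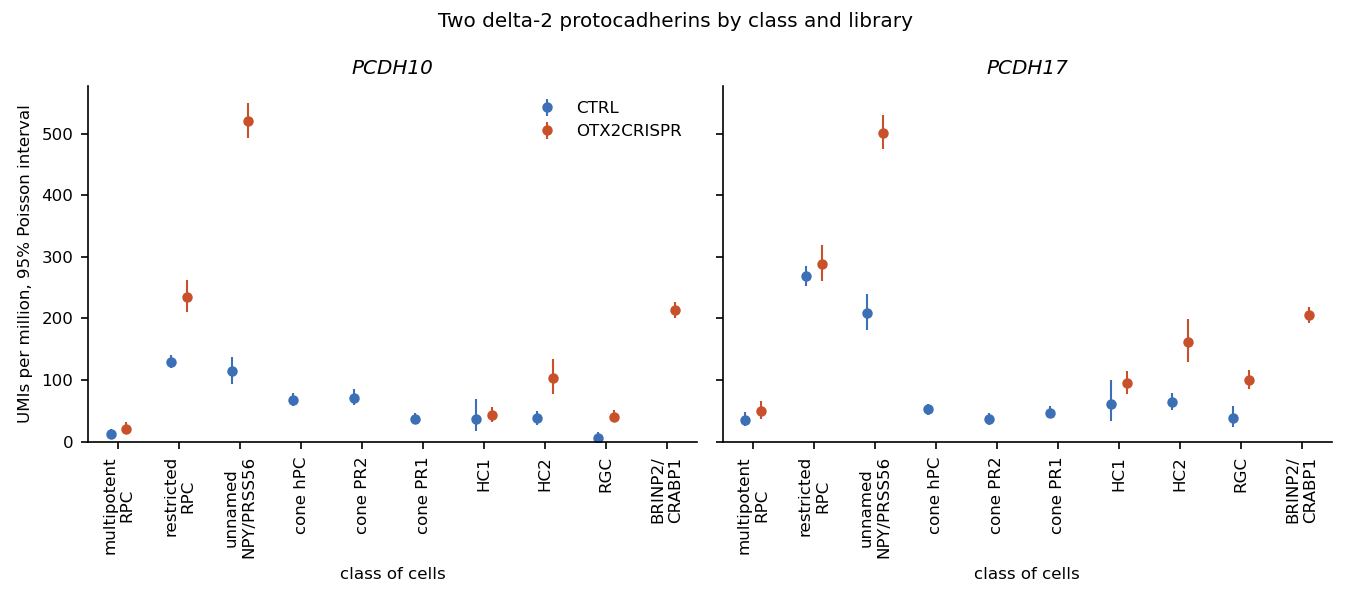
PCDH10 (left) and PCDH17 (right) in each class of CTRL (blue) and OTX2CRISPR (orange), in CPM with 95% Poisson intervals; classes with under 50 cells are not drawn. In the unnamed NPY/PRSS56 cluster PCDH10 measured 114 CPM in CTRL against 521 CPM in OTX2CRISPR, and PCDH17 209 CPM against 502 CPM. The cluster may hold unlike cells in the libraries.

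The unnamed NPY/PRSS56 cluster had the highest PCDH10 and PCDH17 of OTX2CRISPR. PCDH10 was at 114 CPM (93.5 to 138) in its CTRL cells and 521 CPM (494 to 550.1) in its OTX2CRISPR cells, a log2 ratio of 2.19 (1.91 to 2.49). PCDH17 was at 209 CPM (181 to 240.4) and 502 CPM (475 to 530.1), a log2 ratio of 1.26 (1.05 to 1.49). After each cell was thinned to 1000 UMIs, 34.5% (31.4 to 37.8%) of its OTX2CRISPR cells had a PCDH10 UMI, against 7.88% (5.21 to 11.3%) in CTRL. The share in multipotent cells of OTX2CRISPR, taken as the class low in PCDH10, was 3.01%. Unthinned, the 3 shares were 55.2%, 19.5% and 5.30%, and the median depths 2765, 2771 and 3067 UMIs. At clustering resolution 1.0, a cluster with NPY, PRSS56 and PCDH10 among its leading genes held 27 CTRL and 647 OTX2CRISPR cells. It took the restricted RPC name, with 76.6% of its cells scoring highest for that class. A separate cluster led by DLX2 and PTF1A held 321 and 264, and took the name of the mixed class, with 51.1%. The unnamed cluster may thus hold unlike cells in the libraries, and its library differences cannot be told apart from that mix. NPY and PRSS56 may not describe most of its CTRL cells.

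Phase moved with the PCDH10 and PCDH17 levels of the unnamed cluster. In OTX2CRISPR 71.5% of the cells of this cluster were called S or G2/M, and in CTRL 30.6%. Within G2/M cells of the cluster PCDH10 reached 407 CPM (321 to 508) in CTRL and 679 CPM (641 to 719.8) in OTX2CRISPR, and within G1 cells at 43.2 CPM (28.5 to 62.9) and 191 CPM (159 to 227). PCDH17 was at 422 CPM and 608 CPM in G2/M cells, and at 136 CPM and 283 CPM in G1 cells. Both genes were higher in OTX2CRISPR within either phase, and higher in G2/M than in G1 within either library. In CTRL restricted RPC-like cells PCDH10 was likewise at 165.5 CPM in G2/M cells and 22.0 CPM in G1 cells. Dividing the unnamed cluster by phase did not divide the unlike cells it may hold. At resolution 1.0 the cluster with NPY and PRSS56 had a larger share of S or G2/M cells than the one led by DLX2 and PTF1A. Phase and this mix of cells were thus not told apart in the unnamed cluster, either between libraries or between phases.

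In restricted RPC-like cells themselves PCDH10 had 129.9 CPM in CTRL and 236 CPM (210.2 to 263) in OTX2CRISPR, a log2 ratio of 0.86 (0.65 to 1.06), and PCDH17 at 269 CPM and 289 CPM, a log2 ratio of 0.10 (-0.07 to 0.27). PCDH8 was at 25.9 CPM (21.3 to 31.2) and 10.5 CPM (5.72 to 17.6), and CDH11, encoding OB-cadherin, at 26.6 CPM (21.9 to 32.0) and 11.96 CPM (6.84 to 19.4). Of 12 members with at least 50 UMIs there, 0 were at least 2-fold higher in OTX2CRISPR, where 2.57% of all 7774 genes were, and PCDH8 and CDH11 were at least 2-fold lower, where 2.25% were. The median log2 ratio was 0.13 over the members and 0.03 over all genes. Where the boundary between this class and the unnamed cluster was drawn decided these values. With both pooled, a step added once results were known, PCDH10 had a log2 ratio of 1.74 (1.61 to 1.87) and PCDH17 of 0.73 (0.63 to 0.84), CDH11 stayed lower at -1.05 (-1.58 to -0.55), and PCDH8 was at -0.03 (-0.45 to 0.38). At clustering resolutions 0.4 and 1.0, PCDH10 had log2 ratios of 1.83 and 2.05, and PCDH8 of -0.29 and -0.44. Among G1 cells of the class, PCDH17 was at 61.6 CPM (40.97 to 89.1) in CTRL and 176 CPM (126 to 239) in OTX2CRISPR. Among its G2/M cells PCDH17 was at 332.5 CPM and 352 CPM. PCDH10 was at 22.0 CPM (10.6 to 40.5) and 90.2 CPM (55.8 to 138) in G1 cells, on 10 and 21 UMIs. In G2/M cells it was at 165.5 CPM (152 to 180.2) and 305 CPM (271 to 343).

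CDH20 and PCDH19 had their highest levels in the unnamed cluster and restricted RPC-like cells, but within the unnamed cluster were lower in OTX2CRISPR. The log2 ratios there were -0.61 (-1.04 to -0.17) for CDH20 and -0.53 (-1.02 to -0.03) for PCDH19. CDH20 had 76.8 CPM (60.1 to 96.7) in CTRL and 50.3 CPM (42.03 to 59.8) in OTX2CRISPR cells of the unnamed cluster, and at 65.0 CPM and 57.6 CPM in restricted RPC-like cells. Outside these classes its levels ran from 2.40 CPM in HC2-like to 31.0 CPM in multipotent cells of CTRL. PCDH19, a gene mutated in a human epilepsy, was at 58.6 CPM (44.2 to 76.3) and 40.6 CPM (33.2 to 49.2) in the unnamed cluster of the libraries. Its next level in CTRL was 17.4 CPM in restricted RPC-like cells, and it had 1 UMI in the RGC-like cells of each library. Among G1 cells of CTRL, PCDH19 was at 54.4 CPM in the unnamed cluster and 2.20 CPM (1 UMI) in restricted RPC-like cells.

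Cone-like cells are described in CTRL, because each of their classes held at most 38 cells in OTX2CRISPR. Between PR2-like and PR1-like cells the type II cadherins CDH18 and CDH22 differed in opposite directions. PCDH10, PCDHGC3 and CDH2, of other families, differed by larger ratios than the type II cadherin CDH12. Of the members with at least 50 UMIs there, only CDH18 passed 2-fold. CDH18 was at 74.7 CPM (62.2 to 88.9) in PR2-like cells, which are rich in THRB, and at 22.7 CPM (16.6 to 30.4) in PR1-like cells. CDH22 ran the other way, at 35.6 CPM (27.1 to 45.8) in PR2-like and 68.2 CPM (57.2 to 80.7) in PR1-like cells. In dividing chPC-like cells CDH18 was at 21.8 CPM (16.5 to 28.3) and CDH22 at 7.28 CPM (4.38 to 11.4).

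**Figure D4:**
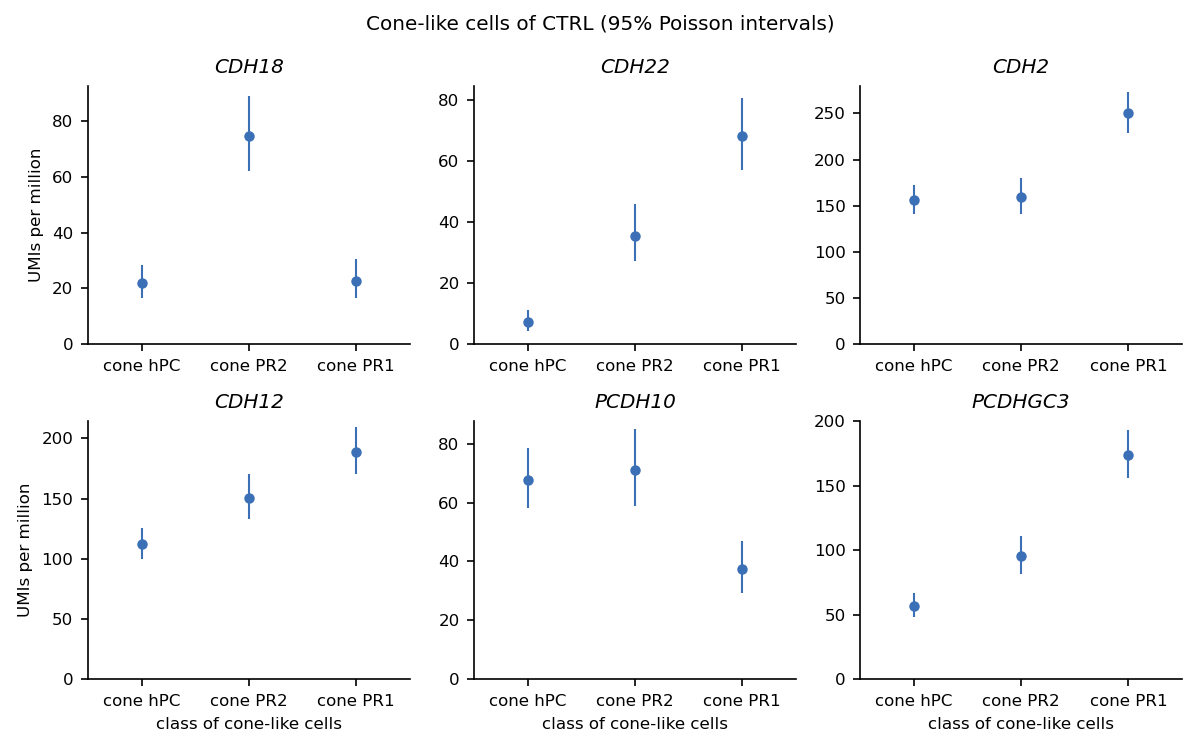
Members in the dividing (chPC, drawn as hPC), PR2-like and PR1-like cone classes of CTRL, in CPM with 95% Poisson intervals and axes from 0. CDH18 was highest in PR2-like cells at 74.7 CPM, and CDH22, CDH2, CDH12 and PCDHGC3 were highest in PR1-like cells.

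As log2 ratios of PR2-like over PR1-like cells, CDH18 was at 1.72 (1.21 to 2.24), PCDH10 at 0.93 (0.50 to 1.37), CDH15 at 0.60 (0.05 to 1.16), CDH12 at -0.33 (-0.56 to -0.09), PCDH17 at -0.38 (-0.87 to 0.10), CDH2 at -0.65 (-0.87 to -0.43), PCDHGC3 at -0.86 (-1.14 to -0.59) and CDH22 at -0.94 (-1.40 to -0.49). Only CDH18 passed 2-fold of these 8 members, in a comparison where 6.01% of 6966 genes were at least 2-fold higher in PR2-like cells. On the other side 0 members passed, where 3.82% of genes did. Those shares would come to 0.481 and 0.305 of 8. Members under the minimum of 50 UMIs had larger ratios on few UMIs: CDH20 was at -2.47 (-4.00 to -1.22) on 6 and 39 UMIs, CDH11 at -2.40 (-4.12 to -1.03) on 5 and 31, and PCDH7 at -2.18 (-3.73 to -0.91) on 6 and 32. The median log2 ratio was -0.35 over the members and 0.15 over all genes.

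Dividing the same postmitotic cones by a THRB UMI in the thinned cell, instead of by cluster, kept the directions. The divisions are not independent, since 865 THRB UMIs lay in PR2-like and 64 in PR1-like cells of CTRL. Of cells of at least 1000 UMIs, 301 had a THRB UMI and 1267 had none. CDH18 had 72.9 CPM in the former and 40.5 CPM in the latter, a log2 ratio of 0.85 (0.35 to 1.33), under 2-fold. CDH22 was at 28.04 CPM and 59.6 CPM, a log2 ratio of -1.09 (-1.83 to -0.42), and PCDH10 at 75.7 CPM and 47.7 CPM. Among dividing chPC-like cells, 279 had a THRB UMI and 534 had none. The log2 ratios there were 0.43 (-0.39 to 1.23) for CDH18, 0.11 (-1.47 to 1.58) for CDH22 and 0.61 (0.17 to 1.06) for PCDH10. A cell without a THRB UMI after thinning may still express THRB.

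CDH12, a type II cadherin first known from brain, and CDH2 were measured in every cone class. CDH12 was at 112 CPM (99.8 to 126) in chPC-like, 151 CPM (133 to 170.2) in PR2-like and 189 CPM (170.3 to 209) in PR1-like cells, with intervals that did not overlap. CDH2 was at 156 CPM (142 to 172), 159 CPM (141 to 180) and 250.05 CPM (229 to 273) in the same order. CDH15, encoding M-cadherin, known from skeletal muscle, was at 12.6 CPM, 39.1 CPM and 25.8 CPM. Cone RNA outside cone cells differed between libraries: RBP4, a cone transcript, was at 9408 CPM over the 3 cone classes of CTRL and at 196 CPM in its HC2-like cells, but at 5.52 CPM in HC2-like cells of OTX2CRISPR. CDH18 was at 36.3 CPM over the CTRL cone classes and 1.60 CPM in HC2-like cells, and CDH22 at 34.1 CPM and 4.79 CPM. The part of stray cone RNA in these low levels was not tested.

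The lower CDH18 and CDH22 of the OTX2CRISPR library came with fewer cone-like cells, 112 against 2405 in CTRL. In the remaining cone-like cells CDH18 had 5 UMIs (21.8 CPM) and CDH22 had 4 (17.4 CPM), and the log2 ratios to CTRL, -0.74 (-2.37 to 0.51) and -0.97 (-2.86 to 0.41), included 0. CDH12 was at 148 CPM in these and 147 CPM in the CTRL cone-like cells, a log2 ratio of 0.01 (-0.52 to 0.51). PCDH10 was at 118 CPM and 59.1 CPM (27 and 371 UMIs), a log2 ratio of 0.99 (0.37 to 1.56).

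Horizontal cells differed by type in delta-1 protocadherins. PCDH9 reached 282 CPM (252 to 315) in the OTX2CRISPR HC1-like cells and 88.3 CPM (65.1 to 117) in HC2-like cells, and PCDH7 at 127 CPM (107 to 149) and 44.1 CPM (28.3 to 65.7). In CTRL, with 87 HC1-like cells, PCDH9 was at 247 CPM (189 to 317) and 55.9 CPM (43.6 to 70.6), and PCDH7 at 226 CPM (171 to 294) and 27.1 CPM (18.8 to 37.9). The same order was thus found in both libraries, with intervals apart in each. PCDH11X, also a delta-1 gene, had 35 UMIs in HC1-like and 2 in HC2-like cells of OTX2CRISPR, and 11 and 6 in CTRL, at 44.5 CPM (22.2 to 79.5) and 4.79 CPM. PCDH1, the remaining delta-1 gene, had 13 and 1 UMIs in these classes of OTX2CRISPR and 2 and 1 in CTRL.

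**Figure D5:**
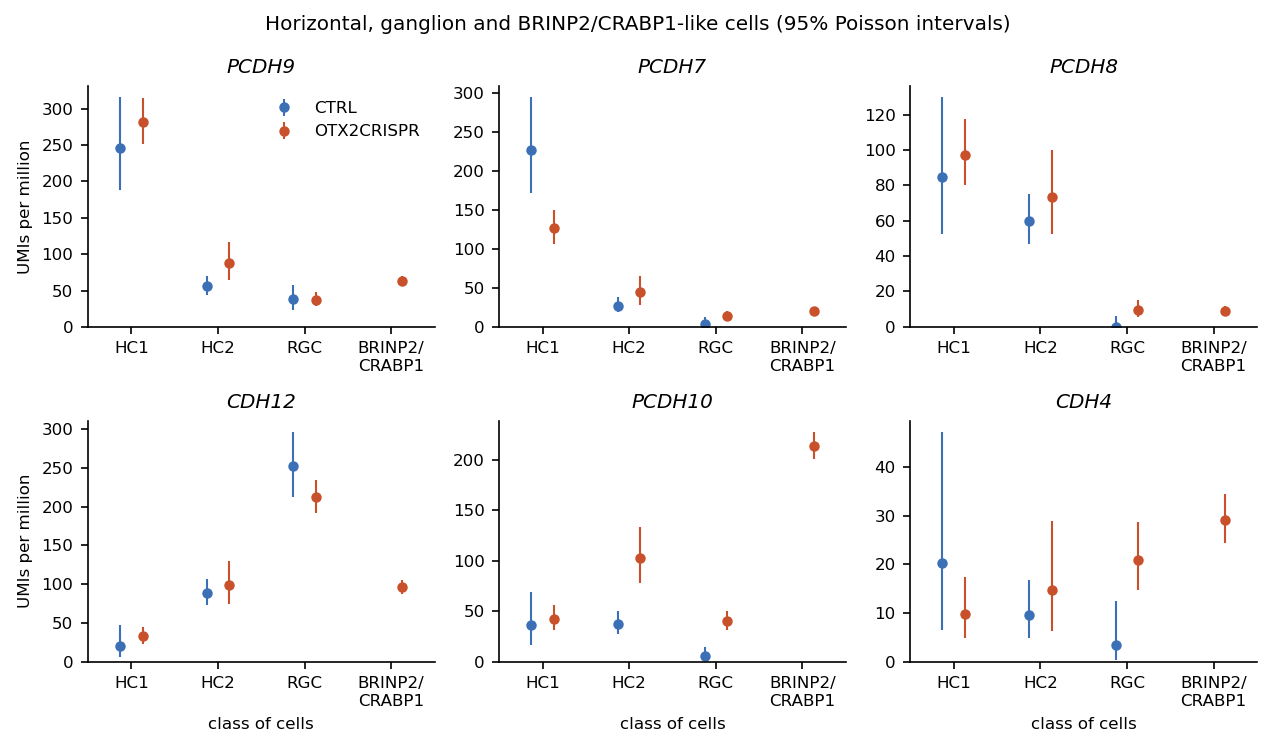
Members in HC1-like, HC2-like, RGC-like and BRINP2/CRABP1-like cells of CTRL (blue) and OTX2CRISPR (orange), in CPM with 95% Poisson intervals and axes from 0; the 32 BRINP2/CRABP1-like cells of CTRL are not drawn. PCDH9 and PCDH7 were highest in HC1-like cells, CDH12 in RGC-like cells and PCDH10 in BRINP2/CRABP1-like cells, at 213 CPM.

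PCDH8, a delta-2 protocadherin known as arcadlin in the rat, was present in both horizontal types with overlapping intervals, at 97.4 CPM (80.0 to 117) in HC1-like and 73.6 CPM (52.6 to 100.2) in HC2-like cells of OTX2CRISPR and 84.9 CPM and 59.9 CPM in CTRL. It had 0 UMIs in CTRL RGC-like cells, where 3 UMIs would be 5.14 CPM, and 9.37 CPM in those of OTX2CRISPR. Higher in HC2-like cells of OTX2CRISPR were CDH12, at 99.3 CPM against 32.7 CPM in HC1-like cells, and PCDH10, at 103 CPM against 42.5 CPM. In CTRL CDH12 was at 88.6 CPM and 20.2 CPM in the same classes, whereas PCDH10 was at 37.5 CPM and 36.4 CPM. Of 8 members with at least 50 UMIs in these OTX2CRISPR cells, 2 were at least 2-fold higher in HC1-like cells, where 7.77% of 4905 genes were, and 2 at least 2-fold lower, where 2.57% were. These shares would come to 0.621 and 0.206 of 8. The median log2 ratio was 0.18 over the members and 0.10 over all genes.

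Between libraries within a horizontal type, PCDH7 in HC1-like cells was lower in OTX2CRISPR, with a log2 ratio of -0.84 (-1.29 to -0.37), while PCDH9 was at 0.20 (-0.20 to 0.62). In HC2-like cells PCDH10 had a log2 ratio of 1.46 (0.87 to 2.05) and PCDH17 of 1.34 (0.89 to 1.80), from 63.9 CPM in CTRL to 162 CPM in OTX2CRISPR. RGC-like cells had the same direction for PCDH17, from 37.7 CPM (23.6 to 57.1) to 99.8 CPM (85.7 to 115), and for PCDH10, from 3 UMIs (5.14 CPM) to 73 UMIs (40.2 CPM). HC1-like cells had PCDH10 at 36.4 CPM and 42.5 CPM. PCDH10 and PCDH17 both had higher levels in the whole OTX2CRISPR library than in CTRL. Stray transcripts of these 2 genes from other classes were not tested as a source of these levels.

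RGC-like cells had the highest CDH12 of both libraries, 252 CPM (213 to 296) in CTRL and 212 CPM (192 to 234.5) in OTX2CRISPR. CDH2 was at 224 CPM (188 to 266) and 227 CPM (205 to 249.5) in them. After thinning, 23.3% (16.8 to 30.9%) of CTRL RGC-like cells had a CDH12 UMI, and 1.97% (1.28 to 2.89%) of restricted RPC-like cells, the class low in it. Unthinned these were 58.0% and 5.94%, at median depths of 3839.5 and 3206 UMIs. CDH4, whose product R-cadherin was first described in the chick retina, had 20.9 CPM (14.8 to 28.7) in OTX2CRISPR RGC-like cells and had 2 UMIs (3.43 CPM) in those of CTRL, a log2 ratio of 2.61 (0.66 to 5.71).

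BRINP2/CRABP1-like cells made up 36.7% of the OTX2CRISPR library and 0.631% of CTRL. They had PCDH10 at 213 CPM (200.1 to 227) and PCDH17 at 205 CPM (192 to 218), which are 5.30-fold and 2.05-fold the levels in RGC-like cells of the same library. PCDH19 was 13.05 CPM there, with 60 UMIs against 1 in RGC-like cells, a log2 ratio of 4.57 (2.03 to 9.89), and CDH20 was 2.31-fold higher. PCDH17 was not called with equal cell weight, at resolution 1.0, with members and markers kept, without cell cycle regression and in G1 cells, CDH20 with equal cell weight, at resolution 1.0 and with 20 principal components, and PCDH19 at resolution 1.0 and with members and markers kept. CDH12, at 96.4 CPM (87.6 to 106) against 212 CPM, and CDH11, at 11.3 CPM against 23.7 CPM, were lower, though CDH11 was not called with equal cell weight. Of 16 members with at least 50 UMIs in the 2 classes, 4 were at least 2-fold higher in BRINP2/CRABP1-like cells, where 5.47% of 8333 genes were, and 2 at least 2-fold lower, where 4.73% were. Those shares would come to 0.876 and 0.757 of 16. The median log2 ratio was 0.57 over the members and -0.01 over all genes.

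CDH4 and PCDH1 were counted mostly in this class, the largest of OTX2CRISPR, with 4596037 of the 13206843 UMIs of the library. Of 221 CDH4 UMIs in the OTX2CRISPR library 134 lay in BRINP2/CRABP1-like cells, at 29.2 CPM (24.4 to 34.5), and of 78 PCDH1 UMIs 48 did, at 10.4 CPM (7.70 to 13.8). The interval of CDH4 overlapped that in RGC-like cells of OTX2CRISPR, at 20.9 CPM (14.8 to 28.7). PCDH1, a delta-1 protocadherin, had 7 UMIs in the whole CTRL library, a log2 ratio of 3.64 (2.53 to 5.001) between libraries. With 85 UMIs in all it was under the minimum for the counts above. In OTX2CRISPR its HC1-like level, 11.5 CPM (6.13 to 19.7), overlapped that in BRINP2/CRABP1-like cells, and multipotent RPC-like cells had 0 UMIs. PCDH9 had 62.9 CPM (55.8 to 70.6) in BRINP2/CRABP1-like and 37.5 CPM (29.1 to 47.5) in RGC-like cells.

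CDH2 and PCDHGC3 were present in every class, with other ranges. CDH2 ran from 97.0 CPM in the unnamed cluster to 250.05 CPM in PR1-like cells of CTRL, and from 103 CPM in restricted RPC-like to 227 CPM in RGC-like cells of OTX2CRISPR. Within classes of at least 50 cells in both libraries its log2 ratio between libraries stayed between -0.20 and 0.14, except for 0.47 (0.14 to 0.82) in the unnamed cluster. PCDHGC3 was at 40.8 CPM in multipotent, 49.2 CPM in restricted RPC-like, 82.1 CPM in unnamed, 116 CPM in RGC-like, 193 CPM in HC2-like and 238 CPM in HC1-like cells of CTRL, with the last 2 intervals overlapping. In OTX2CRISPR it was at 44.3 CPM, 58.3 CPM, 60.9 CPM, 144 CPM, 212 CPM and 204 CPM in the same classes, and at 173 CPM in BRINP2/CRABP1-like cells. Among the CTRL cones it was at 56.7 CPM in chPC-like, 95.4 CPM in PR2-like and 174 CPM in PR1-like cells. Multipotent and restricted RPC-like cells had the lowest levels of CTRL, with chPC-like cells next, and HC1-like and HC2-like cells the highest of both libraries.

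The alpha and gamma clustered genes need a caution on what is counted. Members of these 2 arrays splice their own first exon to shared 3' exons, and a 3' read from the shared part names no single member. In the RefSeq annotation of the assembly GRCg7b, PCDHGA2 and PCDHGC3 overlap and share an end, and so do PCDHA4, PCDHA3 and PCDHA7. PCDHGC3 had 3065 UMIs and PCDHGA2 had 14, so the PCDHGC3 level may hold transcripts of other gamma members. PCDHGA2L had 75 UMIs in CTRL and 124 in OTX2CRISPR and was highest in HC2-like cells of CTRL (18.4 CPM) and HC1-like cells of OTX2CRISPR (15.0 CPM). These intervals overlapped those of the next class, HC1-like cells in CTRL (16.2 CPM) and BRINP2/CRABP1-like cells in OTX2CRISPR (13.9 CPM). The beta member PCDHB15 had 18 and 33 UMIs. The alpha members PCDHAC2 (16 and 20 UMIs), PCDHA7 (1 and 6), PCDHA4 (0 and 3) and PCDHA3 (0 and 2) were near the limit of detection.

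CDH15 was highest in PR2-like cells of CTRL, at 39.1 CPM (30.2 to 49.8), and in BRINP2/CRABP1-like cells of OTX2CRISPR, at 22.2 CPM (18.1 to 26.9). PCDH20 was at 21.3 CPM in the unnamed cluster and 13.2 CPM in restricted RPC-like cells of CTRL, and at 19.9 CPM and 20.9 CPM in OTX2CRISPR, where HC2-like cells had 0 UMIs.

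Of the 22 members under 50 UMIs, 18 had at least 1 UMI, in at most 0.315% of CTRL and 0.406% of OTX2CRISPR cells for any gene. CDH6 had 14 UMIs in CTRL and 8 in OTX2CRISPR, of which 10 and 6 lay in HC2-like cells. CDH8 had 11 and 17 UMIs, with 8 of the 17 in HC1-like cells of OTX2CRISPR, and PCDHB3 had 13 and 15. PCDH15 had 9 and 17 UMIs and CDH23 had 8 and 8. Those proteins join as the tip link of hair cells in mammals. CDH10 (7 and 2), CDH7 (6 and 1), CDH1, encoding E-cadherin (5 and 7), CDH9 (2 and 8), CDH19 (2 and 2), PCDHB14L2 (2 and 3), CDH13 (1 and 3) and CDH17 (0 and 2) had 10 UMIs or fewer in either library.

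CDH5 and PCDH12, both known from endothelium, and the beta members PCDHB4P and PCDHB4L1 had 0 UMIs in both libraries. The intervals of a count of 0 reach up to 0.250 CPM in CTRL and 0.279 CPM in OTX2CRISPR, or a UMI in 0.0727% and 0.0748% of cells. At this depth low expression of these genes was not detectable.

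Few members were seen together in 1 cell. With each cell thinned to 1000 UMIs, 49.6% of CTRL and 38.8% of OTX2CRISPR cells had no member UMI, and 14.6% and 24.1% had UMIs of at least 2 members. The mean number of members per cell was 0.686 in CTRL and 0.924 in OTX2CRISPR. By class it was highest in HC1-like cells of CTRL, at 1.06, and in the unnamed cluster of OTX2CRISPR, at 1.13, and it was lowest in chPC-like cells of CTRL, at 0.472, among classes of at least 50 cells.

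Partners of the classical cadherins were counted beside the members. Of 12 catenins and related adaptors, 11 had at least 100 UMIs in both libraries together. Their log2 ratios of OTX2CRISPR over CTRL ran from -1.07 to 0.63. CTNNB1, encoding beta-catenin, was at 0.20 and CTNND1, encoding p120 catenin, at 0.32, while CTNNAL1 was at -0.69 (-0.82 to -0.56) and PKP4 at -0.78 (-0.98 to -0.58). Of the alpha-catenin genes, CTNNA1, the broadly expressed form, had 97.3 CPM in CTRL and 46.3 CPM in OTX2CRISPR, a log2 ratio of -1.07 (-1.21 to -0.93), and CTNNA2, the neural form, was at 53.9 CPM and 83.6 CPM, a log2 ratio of 0.63 (0.50 to 0.77). CTNNA3 had 6 UMIs in each library. CTNNA1 was the 1 adaptor past 2-fold, on the lower side, where 3.93% of all 10191 genes with at least 100 UMIs were. The median log2 ratio of the list was 0.07. Among 19 other genes of the cadherin superfamily in the matrix, 10 had at least 100 UMIs. CELSR2 (log2 ratio 1.08), CLSTN2 (1.03) and RET (2.41) were at least 2-fold higher in OTX2CRISPR and FAT4 (-1.42) at least 2-fold lower. Of all genes with at least 100 UMIs, 6.21% were at least 2-fold higher and 3.93% at least 2-fold lower. CLSTN1, which encodes a calsyntenin of transport vesicles and synapses, had 710 CPM in CTRL and 378 CPM in OTX2CRISPR, a log2 ratio of -0.91 (-0.96 to -0.86).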

How the data were processed

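The authors made 10x Chromium libraries of sorted chick retinal cells, processed them with Cell Ranger (version 3.0.2 in the file headers) against GRCg6a, and deposited UMI counts per gene and called cell barcode, not normalized. The deposited counts held 5128 CTRL barcodes with 15177210 UMIs and 4953 OTX2CRISPR barcodes with 13366081 UMIs. Median depth was 2789.5 and 2570 UMIs.

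The limits of the study's source code kept a cell if it had between 200 and 2500 genes, no more than 0.4% mitochondria-related UMIs and no more than 50% ribosomal UMIs. They were clustered in Seurat 5.3.0 (R 4.3.3) on 33 principal components at resolution 0.6 with depth, those shares and cell cycle scores regressed out. Members, adaptors, markers and OTX2 were left out, which kept 611 of 670 variable genes, of which 5 were members. A cluster took the class whose markers were highest, if at least 3 were raised and 50% of cells scored highest for it. That last threshold was set with the data in view. Shares of cells and phases used cells thinned to 1000 UMIs, leaving out 57 CTRL and 92 OTX2CRISPR cells. Scrublet (scanpy 1.11.5) marked 7 cells per library, too few to have worked, and doublets were kept.

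UMIs were summed per library or class. A gene entered a comparison from 100 UMIs on (whole libraries) or 50 (classes), and a ratio was called past a log2 of 1. The call used the ratio alone, so the interval of a called ratio can reach under 2-fold. Intervals were computed with scipy 1.17.1 and checked on simulated data. Every member is given: those with at least 500 UMIs by class and library, those of 50 or more but under 500 by UMIs, highest class and ratios past 2-fold, and those under 50 by UMIs and shares. The members and lists were chosen with earlier results of these data known. Alternatives were all deposited barcodes, median scaling, equal cell weight, minimums of 20 and 200 UMIs, resolutions 0.4 and 1.0, 20 principal components, the members and markers kept, no cell cycle regression, removal of the 4% highest doublet scores, and G1 cells. Gene order came from RefSeq (GRCg7b), which held 39 of the 44 symbols. No coordinates were used, since the builds differ.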

Additional observations from a re-analysis of the deposited data

Results flagged for a closer look

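For 2 members the ratio of OTX2CRISPR over CTRL went in opposite directions in different classes, with both intervals beyond 0. The difference between classes was not tested. PCDH8 had a log2 ratio of 1.91 (0.80 to 3.28) in the unnamed NPY/PRSS56 cluster, on 72 and 7 UMIs, and of -1.31 (-2.22 to -0.50) in restricted RPC-like cells, on 14 and 110 UMIs. With both classes pooled it was -0.03. PCDH7 had a log2 ratio of 2.01 (0.00 to 5.13) in RGC-like cells, on 25 and 2 UMIs, and of -0.84 (-1.29 to -0.37) in HC1-like cells, on 143 and 56 UMIs.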

How the results depend on the processing

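Of 63 recomputed counts of members past 2-fold, 46 stayed within 1.5 times the reported count. The share of all genes past 2-fold is given for the main settings only. The recomputed counts thus have no such share beside them and are not read as results about the members. With at least 20 UMIs the count was 8 between whole libraries (PCDH15, PCDHB15 and PCDH1 were added), 6 between cone types and 10 between BRINP2/CRABP1-like and RGC-like cells. With at least 200 UMIs, where fewer members could be compared, it was 0 in restricted RPC-like cells between libraries, 3 between progenitor classes, 0 between cone types, 1 between horizontal types and 3 between BRINP2/CRABP1-like and RGC-like cells. In restricted RPC-like cells it was 4 at resolution 1.0, where PCDH10, PCDH17 and PCDH19 were higher and CDH11 lower in OTX2CRISPR. It was 1 with 20 principal components (PCDH8, lower). In G1 cells, where 3 members could be compared, it was 1, PCDH17 and higher in OTX2CRISPR, with neither PCDH8 nor CDH11 called. Between progenitor classes it was 0 in G1 cells, where 2 members could be compared. Between cone types it was 2 with median scaling and with members and markers kept (CDH22 was added), and 2 with equal cell weight, without cell cycle regression and in G1 cells (PCDH10 was added). Divided by a THRB UMI, cones gave 1, CDH22 in place of CDH18. At resolution 0.4 PR2-like cells joined the dividing cone cells, the horizontal types merged, and neither comparison gave a value.

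Between whole libraries CDH18, CDH22, PCDH9, PCDH10 and CDH4 stayed past 2-fold with median scaling, equal cell weight, 200 UMIs, without high doublet scores and in G1 cells. PCDH17 was added with equal cell weight and in G1 cells. Without the unnamed cluster, an alternative chosen with the data in view, PCDH10 was no longer past 2-fold, and PCDH7 and PCDHGA2L were. Of 63 recomputed log2 ratios 45 stayed within their counting interval and 0 of those past 2-fold changed direction. All 36 recomputed shares of cells moved beyond theirs. Median scaling shifted all log2 ratios by 0.04. No paired analysis was possible because each condition had 1 library.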

Other observations

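Joint detection of PCDH10 and PCDH17 was counted in single cells thinned to 1000 UMIs. In the unnamed cluster of OTX2CRISPR 145 of 889 cells had a UMI of both, and the product of the 2 shares would give 113. In CTRL restricted RPC-like cells 48 of 1271 had both, against 21.3 from the product, and in BRINP2/CRABP1-like cells of OTX2CRISPR 57 of 1783, against 43.3. Depth was equal after thinning, but the cells of a cluster differ in phase, with which both genes moved. CDH18 and CDH22 were found together in 0 of 885 PR1-like and 1 of 683 PR2-like cells of CTRL, where the products would give 1.46 and 1.97 cells, counts too small to read. PCDH7 and PCDH9 were found together in 14 of 510 HC1-like cells of OTX2CRISPR, against 14.2 from the product.

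The classes of neighbouring members were set side by side. In RefSeq (GRCg7b) 3 genes lie between CDH12 and CDH18. CDH12 was highest in RGC-like cells of CTRL and CDH18 in PR2-like cells. CDH3 and CDH1 lie next to each other with 0 genes between, and had 224 and 12 UMIs over both libraries. PCDH9, PCDH20 and PCDH17 follow one another with 9 and 6 genes between, and were highest in HC1-like, unnamed and restricted RPC-like cells of CTRL. The PCDH20 interval there overlapped that in HC1-like cells. PCDH20 and PCDH17 were both highest in unnamed and restricted RPC-like cells of OTX2CRISPR. PCDH10 and PCDH18 lie 9 genes apart, and were highest in restricted and multipotent RPC-like cells of CTRL. The PCDH10 interval there overlapped that in the unnamed cluster.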
